A study of Mus musculus with 22 samples.

Results

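The Notch receptors, ligands and targets described here are 8 genes of the 17541 listed in the deposited count tables: the receptors Notch1, Notch2 and Notch3, the ligands Jag1, Jag2 and Dll1, and the targets Hes1 and Hey1. They were chosen by name rather than by a measured value, with earlier results of these data known. All 8 were listed, and 7 had at least 1 UMI (unique molecular identifier, the tag that marks 1 captured transcript). Hey1 had 0 UMIs in all 4500 cells. At the depth of the cells used, a count of 0 allowed Hey1 up to 1.72 CPM (counts per 1000000 UMIs) in control, 0.592 CPM in ESCC and 30.6 CPM in EoE (a floor of 3 UMIs over the group).

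Notch receptors sit in the cell membrane and are switched on by ligands of the Jagged and Delta-like families on a neighbouring cell. The sheddase ADAM10 and then the γ-secretase complex cut the bound receptor, and the freed intracellular part enters the nucleus, where it works with RBPJ and Mastermind proteins to turn on targets such as Hes1 and Hey1. In stratified squamous epithelia, among them the lining of the esophagus, the pathway is known for its role as cells leave the basal layer and differentiate.

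Single-cell RNA-Seq on the inDrop platform was performed on epithelium peeled from the esophagus of 13 C57BL6 mice, with 22 libraries in all. The 6 control mice (3 aged 3 to 4 months and 3 aged 18 to 20 months, 2 libraries each) carry no treatment in their labels. The 4 EoE mice received the vitamin D analog MC903 on the ears for 12 days together with ovalbumin, and then oral ovalbumin until day 32 (2 mice aged 6 to 8 weeks and 2 aged 19 to 20 months, 1 library each), which serves as a model of eosinophilic esophagitis. The 3 ESCC mice drank the carcinogen 4NQO for 16 weeks and then plain water for 8 weeks (8 to 10 months old, 2 libraries each), which serves as a model of esophageal squamous cell carcinoma. No MC903-only or vehicle mice were analysed here, ESCC mice had no controls of their own age, and the ESCC cells were peeled epithelium as a whole rather than dissected tumour. Age, treatment and library series therefore cannot be told apart where ESCC is compared. Control and EoE each held both age classes, but their library series differed as well.

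The files held 1500 cells per group. The limits on genes and UMIs per cell given in the methods (250 to 3500 genes and 100 to 9500 UMIs) left 1500 control, 1494 ESCC and 144 EoE cells, and 1493, 1470 and 143 were used once cells with mainly non-epithelial markers were set aside. Summed per mouse, these cells held 111043 to 427752 UMIs in control, 1231048 to 2103543 in ESCC and 6245 to 41909 in EoE, so a member's level was least precise in EoE. Libraries of 1 mouse shared up to 52 cell barcodes and libraries of different groups up to 4. Among markers of other cells, eosinophil and mast cell genes were at 0 in every group (7 of 12 listed). The immune list (18 genes listed) held 69.0 to 208 CPM in ESCC, 0 to 39.3 CPM in control and 0 in EoE. The endothelial list held 71.6 to 278 CPM in EoE, from 2 of its 11 genes with Cdh5 and Kdr at 0, against 0 to 21 CPM in control and 4.03 to 8.94 CPM in ESCC.

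Cells were placed on an axis from Krt5, a keratin of basal cells, to Krtdap, a marker of differentiated superficial cells, from the UMIs of these 2 genes alone. A cell whose log10 Krtdap level exceeded its log10 Krt5 level by more than 0.3 was called Krtdap-high, the reverse Krt5-high, and the rest intermediate. Krt5-high cells made up 50.1 to 77.1% of the cells used in control mice, 78.6 to 86.3% in ESCC mice and 5.88 to 21.1% in EoE mice. Krtdap-high cells made up 17.1 to 35.7%, 3.21 to 13.8% and 54.4 to 72.7%, respectively. The classes matched their names in genes that did not set them: 8 of 8 other basal genes were lower in Krtdap-high than in Krt5-high cells in control and in ESCC, and 10 of 10 differentiation genes were higher in control and 9 of 10 in ESCC. The EoE shares describe only the 143 cells kept. In these the 10 differentiation genes held 109000 to 171000 CPM per mouse, against 51300 to 77400 CPM in all deposited EoE cells. The 8 basal genes held 1480 to 2620 CPM in the cells kept and 4620 to 7160 CPM in all.

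The members lie on 5 chromosomes of GRCm38: Notch1 at chr2:26457903-26516663 (minus strand), Notch2 at chr3:98013527-98150361 (plus), Notch3 at chr17:32120820-32166852 (minus), Jag1 at chr2:137081456-137116644 (minus), Jag2 at chr12:112907819-112929776 (minus), Dll1 at chr17:15367354-15376872 (minus), Hes1 at chr16:30064384-30067796 (plus) and Hey1 at chr3:8663359-8667256 (minus). Exons of Dll1, Notch1 and Notch3 overlap those of noncoding genes on the opposite strand (A930024N18Rik, 0610009E02Rik with Gm13568, and Gm17276), and exons of Notch2 overlap Gm42820 on its own strand. The strand setting of the counting is not given in the sources used here, so reads of these partners cannot be told apart from those of the member.

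Promoters from RefSeq (GRCm38.p6, 250 bases before to 50 after the start) were found for 6 of the 8 members, with 2 entries for Dll1. They are printed for the members that changed the same way along the axis in control and ESCC: Notch1, Jag2 and Dll1, which were lower in Krtdap-high cells, and Notch2 and Notch3, which were higher. Capitals mark the GC box (GGGCGG, or CCGCCC on the other strand), the motif bound by Sp1-type factors.
Notch1 (chr2:26503773-26504072, minus strand): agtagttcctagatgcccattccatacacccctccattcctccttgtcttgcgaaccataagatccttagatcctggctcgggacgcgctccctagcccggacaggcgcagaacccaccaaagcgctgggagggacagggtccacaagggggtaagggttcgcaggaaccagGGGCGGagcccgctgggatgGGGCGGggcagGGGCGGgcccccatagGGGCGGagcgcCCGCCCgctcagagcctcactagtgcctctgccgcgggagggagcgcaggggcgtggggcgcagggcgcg
Jag2 (chr12:112929446-112929745, minus strand): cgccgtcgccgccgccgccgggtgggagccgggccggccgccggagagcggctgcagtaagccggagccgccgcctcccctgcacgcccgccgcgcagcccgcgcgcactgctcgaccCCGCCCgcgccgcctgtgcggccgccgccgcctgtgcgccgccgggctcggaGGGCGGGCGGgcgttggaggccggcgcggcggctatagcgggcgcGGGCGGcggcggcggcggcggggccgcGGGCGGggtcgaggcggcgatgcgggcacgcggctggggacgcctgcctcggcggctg
Dll1, entry 1 (chr17:15375774-15376073, minus strand): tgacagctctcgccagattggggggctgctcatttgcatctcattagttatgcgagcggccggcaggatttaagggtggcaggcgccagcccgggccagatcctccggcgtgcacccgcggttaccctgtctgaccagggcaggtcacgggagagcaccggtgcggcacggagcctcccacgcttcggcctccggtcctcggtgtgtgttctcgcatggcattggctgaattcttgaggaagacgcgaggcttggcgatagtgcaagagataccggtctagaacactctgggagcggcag
Dll1, entry 2 (chr17:15376883-15377182, minus strand): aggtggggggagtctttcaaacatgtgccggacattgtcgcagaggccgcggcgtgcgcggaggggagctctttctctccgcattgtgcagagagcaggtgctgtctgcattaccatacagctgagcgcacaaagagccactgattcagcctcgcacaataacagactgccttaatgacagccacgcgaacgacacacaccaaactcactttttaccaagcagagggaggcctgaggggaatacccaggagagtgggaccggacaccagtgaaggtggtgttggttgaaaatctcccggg
Notch2 (chr3:98013288-98013587, plus strand): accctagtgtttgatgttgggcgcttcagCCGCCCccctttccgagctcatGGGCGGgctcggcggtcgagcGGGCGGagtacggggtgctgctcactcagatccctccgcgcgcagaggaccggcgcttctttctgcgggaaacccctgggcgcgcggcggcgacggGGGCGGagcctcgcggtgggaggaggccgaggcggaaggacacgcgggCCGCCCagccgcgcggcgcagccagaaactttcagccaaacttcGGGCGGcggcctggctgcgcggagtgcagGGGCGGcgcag
Notch3 (chr17:32166841-32167140, minus strand): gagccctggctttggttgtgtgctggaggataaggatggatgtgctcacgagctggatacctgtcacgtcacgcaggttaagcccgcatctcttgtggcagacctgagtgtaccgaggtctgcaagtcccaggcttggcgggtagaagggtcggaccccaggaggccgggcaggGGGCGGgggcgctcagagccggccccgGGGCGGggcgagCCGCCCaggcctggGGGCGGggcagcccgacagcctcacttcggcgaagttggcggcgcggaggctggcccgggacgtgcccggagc

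GC boxes, overlaps counted, numbered 5 in Notch1, 5 in Jag2, 0 in both Dll1 entries, 7 in Notch2 and 4 in Notch3, so Jag2 and Dll1, whose levels fell together, differed in these letters. The Jag1 promoter, not printed, held 0. A GC box was in 35.7% of the 32851 mouse promoters of this length. The G and C content was 68.3% for Notch1, 86.0% for Jag2, 62.7% and 56.3% for the Dll1 entries, 73.0% for Notch2 and 70.0% for Notch3, against a median of 52.7%. None of the 7 entries held GTGGGAA, the core of the RBPJ site (6.38% of promoters, both strands), TATAAA (13.6%), the AP-1 site TGACTCA (5.2%) or the E-box CACGTG (7.15%).

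To ask how the members changed with differentiation, Krtdap-high cells were compared with Krt5-high cells of the same mice. In control mice 2 receptors and 1 ligand were higher in Krtdap-high cells (Notch2, Notch3 and Jag1), 1 receptor and 2 ligands were lower (Notch1, Jag2 and Dll1), and the target Hes1 did not pass the test. In ESCC mice Notch2 and Notch3 were higher, and Notch1, Jag2, Dll1 and Hes1 were lower. The test was edgeR's quasi-likelihood test on UMI sums per mouse and class with the mouse as a block, with Benjamini-Hochberg adjustment over 4612 genes. Of 7 members tested, 6 passed in control and 6 in ESCC, where 46.4% and 31.9% of all genes tested passed.

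**Figure D1:**
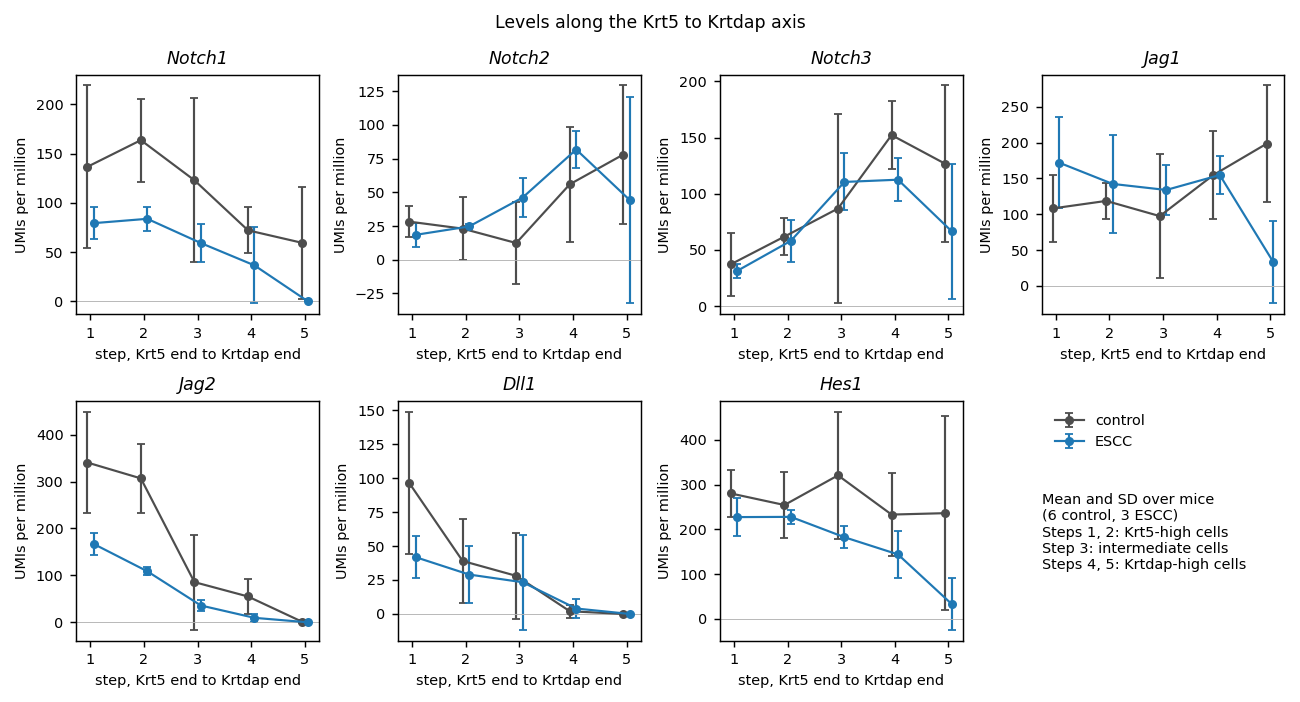
Mean CPM without TMM scaling (y axis, linear, bars ± SD over mice) of 7 members in 5 steps from the Krt5 end to the Krtdap end (x axis), in 6 control mice (grey) and 3 ESCC mice (blue). Jag2 in control falls from 341 in the first step to 1.72 in the last, and Notch3 rises from 37.3 to 152 by the fourth.

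Among the receptors, Notch3 and Notch2 were higher in Krtdap-high cells. Its level in control mice was 26.4 to 74.7 CPM (median 50.4) in Krt5-high cells and 112 to 205 CPM (median 153) in Krtdap-high cells, and the 2 ranges did not overlap. The rise was 1.63 ± 0.29 on the log2 scale (SE, n = 6 mice, edgeR adjusted p = 3.87e-07) and was seen in 6 of 6 mice. ESCC mice gave 49.9 CPM (17F), 69.0 CPM (17M) and 46.5 CPM (8M) in Krt5-high cells and 135, 120 and 135 CPM in Krtdap-high cells. All 3 mice were higher in Krtdap-high cells, by 1.24 ± 0.34 (SE, edgeR adjusted p = 0.0015), although without mouse 8M, which held 23 of the 40 UMIs in this class, the adjusted p was 0.0862. With library 1 alone the rise in ESCC was 0.72 and did not pass (edgeR adjusted p = 0.248).

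Notch2 moved the same way. In control mice it was at 14.2 to 47.9 CPM (median 23) in Krt5-high cells and at 37.4 to 106 CPM (median 59.6) in Krtdap-high cells. Every control mouse was higher in its Krtdap-high cells although the ranges overlapped, and the difference was 1.55 ± 0.43 (SE, n = 6, edgeR adjusted p = 0.00139). The 3 ESCC mice 17F, 17M and 8M were at 29.2, 25.4 and 20.7 CPM in Krt5-high cells and at 67.6, 93.0 and 129 CPM in Krtdap-high cells, with no overlap. That difference was 1.99 ± 0.44 (SE, n = 3, edgeR adjusted p = 6.44e-05), and 0.0716 was the adjusted p without mouse 8M.

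Notch1, the receptor most closely tied to epidermal differentiation in mouse genetics, moved the other way. Control mice had 95.7 to 220 CPM (median 151) in Krt5-high cells and 38.0 to 123 CPM (median 55.4) in Krtdap-high cells. Each of the 6 mice was lower in Krtdap-high cells, with a log2 fold change of -1.25 ± 0.29 (SE, edgeR adjusted p = 8.82e-05), with overlapping ranges. ESCC mice 17F, 17M and 8M had 102, 74.2 and 103 CPM in Krt5-high cells and 16.9, 13.3 and 70.3 CPM in Krtdap-high cells. The 3 ESCC mice were also all lower (-1.16 ± 0.42, edgeR adjusted p = 0.0218), but the call was lost without 17F (adjusted p = 0.159), without 17M (0.135) and with no mouse block (0.0586). It was also lost with library 2 alone (edgeR adjusted p = 0.177) and with no filter (0.0569).

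The ligands Jag2 and Dll1 were close to restricted to the Krt5 side. Jag2 in control mice was at 207 to 403 CPM (median 327) in Krt5-high cells and at 7.82 to 61.6 CPM (median 28.3) in Krtdap-high cells, 299 against 16 UMIs. The ranges were far apart, and the fall was -3.65 ± 0.31 on the log2 scale (SE, edgeR adjusted p = 3.15e-26). In ESCC mice 17F, 17M and 8M it was at 138, 154 and 156 CPM in Krt5-high cells and at 16.9, 13.3 and 0 CPM in Krtdap-high cells. With 2 UMIs against 537, the pooled ESCC ratio was 0.0407 (95% counting interval 0.00492 to 0.148, edgeR adjusted p = 1.05e-10).

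Dll1, a Delta-like ligand, had 61 UMIs in Krt5-high cells of control mice, at 35.1 to 116 CPM (median 65.9). In Krtdap-high cells it had 1 UMI, in control mouse 4. The pooled ratio was 0.0215 (95% counting interval 0.000536 to 0.125, edgeR adjusted p = 1.12e-08). ESCC mice 17F, 17M and 8M gave 24.6, 26.7 and 65.9 CPM in Krt5-high cells and again 1 UMI in Krtdap-high cells, in mouse 17M. The ESCC ratio was 0.0881 (0.00221 to 0.50, edgeR adjusted p = 0.00129), and the adjusted p without mouse 8M was 0.405.

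Jag1, the other Jagged ligand, did not share this pattern. In control mice it was higher in Krtdap-high cells in 5 of 6 mice, at 131 to 247 CPM (median 185) against 80.9 to 161 CPM (median 104) in Krt5-high cells, a rise of 0.83 ± 0.24 (SE, edgeR adjusted p = 0.00189). With library 2 alone the rise was 0.67 and did not pass (edgeR adjusted p = 0.0707). ESCC mice 17F, 17M and 8M were at 188, 229 and 102 CPM in Krt5-high cells and at 186, 146 and 164 CPM in Krtdap-high cells. Only mouse 8M was higher in its Krtdap-high cells, and the log2 difference was 0.02 (95% interval -0.52 to 0.55, edgeR adjusted p = 0.972). The 2 stage differences differed by -0.81 ± 0.36 (ESCC minus control), which did not pass (edgeR p = 0.0252, adjusted p = 0.327).

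Hes1, a repressor and the target of the pathway most often read, was present along the whole axis. Control mice had 185 to 324 CPM (median 264) in Krt5-high cells and 85.4 to 431 CPM (median 222) in Krtdap-high cells. Only 2 of 6 mice were higher in Krtdap-high cells, and the log2 difference was -0.27 (95% interval -0.65 to 0.11, edgeR adjusted p = 0.255). Without TMM scaling it was -0.45 and passed (edgeR adjusted p = 0.0403). In ESCC mice 17F, 17M and 8M Hes1 was at 270, 266 and 230 CPM in Krt5-high cells and at 203, 106 and 152 CPM in Krtdap-high cells. These did not overlap (-0.74 ± 0.26, edgeR adjusted p = 0.0174), but 0.223 was the adjusted p without 17M, 0.0836 without 8M and 0.0682 with no mouse block. The call also depended on how classes were drawn. Classes from clusters of control cells gave -0.30 (edgeR adjusted p = 0.222), and a limit of 0.15 in place of 0.3 gave -0.54 (0.0762). With no filter the adjusted p was 0.0551 and with library 1 alone 0.0744.

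**Figure D2:**
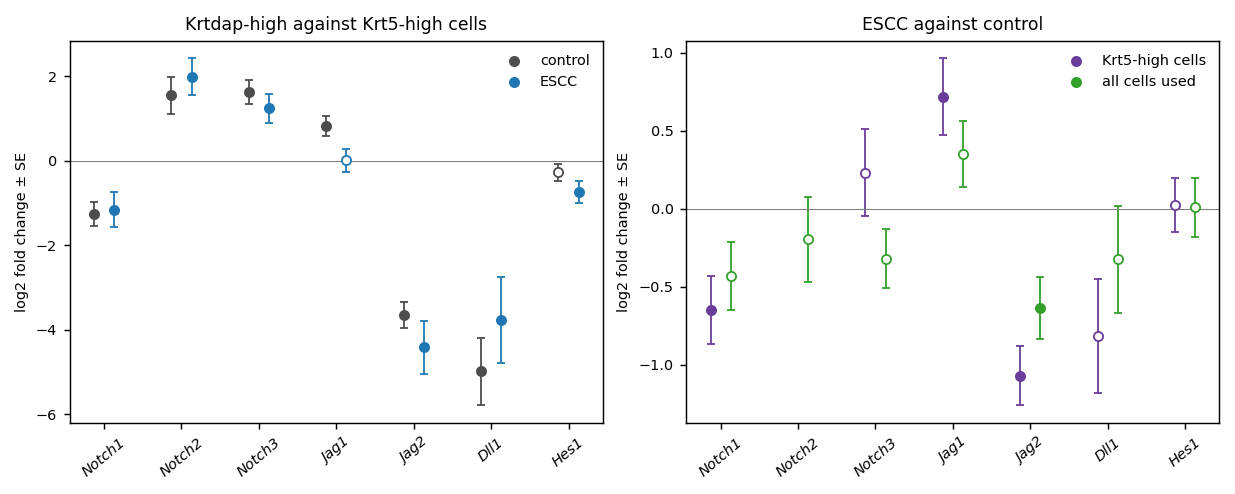
Log2 fold changes (y axis) with SE bars for 7 members, on the left for Krtdap-high against Krt5-high cells in control (grey) and ESCC (blue), on the right for ESCC against control in Krt5-high cells (purple, 6 members tested) and in all cells used (green). Filled points passed edgeR's test and open points did not, and the fitted values of Dll1 and of Jag2 in ESCC on the left rest on 1 or 2 UMIs. Notch2 and Notch3 lie above 0 and Notch1, Jag2 and Dll1 below 0 in both groups on the left.

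None of the 7 members passed the test of a stage difference between ESCC and control, with 1 (Jag1) at an unadjusted p under 0.05 in edgeR and 0 called by DESeq2. Of all genes, 1.56% passed. The 95% intervals of this difference were wide: -1.01 to 1.2 for Notch1, -0.77 to 1.66 for Notch2 and -1.25 to 0.47 for Notch3 on the log2 scale. When classes were instead taken from clusters of control cells, the Jag1 difference was -1.26 (edgeR adjusted p = 0.0104). Krtdap-high ESCC cells had median counts of 3078.0 to 5332.5 UMIs per mouse and control ones 1005.5 to 1869.5, but numbered only 83 against 476.

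Intermediate cells were then compared with Krt5-high cells of the same mice. Jag2 was already lower there than in Krt5-high cells, with a log2 fold change of -1.45 ± 0.33 in control (SE, edgeR adjusted p = 0.000628) and -1.87 ± 0.33 in ESCC (edgeR adjusted p = 5.75e-07). Notch3 was already higher in ESCC intermediate cells, at 152, 96.9 and 137 CPM in mice 17F, 17M and 8M (1.14 ± 0.28, edgeR adjusted p = 0.000849). That call was lost without mouse 17F (adjusted p = 0.137) and with library 1 alone (0.154). In control intermediate cells, of which there were 147, Notch3 ranged from 0 to 161 CPM and did not pass (0.75 ± 0.51, edgeR adjusted p = 0.449). With classes from clusters of control cells it was higher in control too (1.85, edgeR adjusted p = 0.00184), and Dll1 was lower (-2.67, adjusted p = 0.0053). With the classes from Krt5 and Krtdap, 1 of 7 members passed in control and 2 of 7 in ESCC, beside 8.46% and 16.3% of all genes.

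A finer split of the axis, chosen after seeing the data and given without a test, divided Krt5-high and Krtdap-high cells at the control medians. Mean Jag2 over the control mice was 341, 307, 85.7, 55.0 and 1.72 CPM, here without TMM scaling, in the 5 steps from the Krt5 end. Dll1 went through 96.5, 39.0, 28.0, 2.01 and 0. The largest drop in mean control Jag2 was thus at the intermediate step, and that in mean Dll1 at the second step. Between the first 2 steps Jag2 fell from 285 to 252 CPM in control mouse 1, 219 to 185 in mouse 3 and 394 to 358 in mouse 4. It also fell from 493 to 329 CPM in mouse 5 and 411 to 342 in mouse 6, but rose from 242 to 375 in mouse 2. Dll1 rose between these steps only in control mouse 5 (68.5 to 85.8 CPM). Notch3 rose through 37.3, 61.9, 86.9 and 152 and was at 127 in the last step. Mean Hes1 was 280, 254, 321, 233 and 236, but the last value was raised by control mouse 3 (659 CPM from 8 UMIs in 5 cells), and the median of the 6 mice in that step was 166. The cuts at control medians did not make the steps alike, since mean Krtdap in the second was 1369 CPM in ESCC and 399 CPM in control. In ESCC mean Jag2 was 167 CPM in the first step and 109 CPM in the second. It fell between these steps from 143 to 111 CPM in mouse 17F, 189 to 116 in 17M and 169 to 99.0 in 8M. The last step of ESCC held only 20 cells, and Notch1, Jag2 and Dll1 had 0 UMIs in it.

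Since cell cycle genes also fell along the axis (32 listed genes, 3700 to 6090 CPM in Krt5-high and 137 to 534 CPM in Krtdap-high cells of control mice), cycling Krt5-high cells (at least 2 cell cycle UMIs) were compared with the other Krt5-high cells of the same mice. The rule counts raw UMIs, so cells with more UMIs meet it more easily. It was met by 796 of 1233 ESCC and 381 of 862 control Krt5-high cells, and the part of depth in the split was not tested. Jag2 did not follow this split. It was at 186 to 419 CPM in cycling and 201 to 464 CPM in other cells of control mice, a log2 difference of 0.09 (95% interval -0.27 to 0.46, edgeR adjusted p = 0.844), and the ESCC difference was -0.08 (-0.42 to 0.25, adjusted p = 0.834). Dll1 had too few UMIs for the fit, at 12.3 to 159 CPM in cycling and 53.9 to 120 CPM in other control cells (two-sided exact sign-flip test over 6 mice, p = 0.531, smallest possible 0.0312).

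Jag1 was the member that passed between cycling and other cells, in ESCC. In ESCC mice 17F, 17M and 8M it was at 165, 195 and 98.2 CPM in cycling cells and at 249, 298 and 104 CPM in the others, lower in 3 of 3 mice (-0.51 ± 0.17, edgeR adjusted p = 0.0248). The call was lost without 17F (adjusted p = 0.242), without 17M (0.478), with DESeq2 (0.659) and with no mouse block (0.711). Control mice had 42.1 to 159 CPM (median 71.3) in cycling and 71.4 to 243 CPM (median 126) in other cells, lower in 4 of 6 mice (-0.88 ± 0.32, edgeR adjusted p = 0.0534). This passed without control mouse 3 (adjusted p = 0.0151), control mouse 6 (0.0257) or ESCC mouse 8M (0.0494), and without cells called doublets (0.0133). Of 4 members tested, 1 passed in ESCC and 0 in control (1 at an unadjusted p under 0.05 in edgeR, 0 by DESeq2), beside 12.4% and 12.6% of all genes.

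ESCC was compared with control first in Krt5-high cells, which made up most of the ESCC cells and a class present in every mouse of both groups. Jag2 and Notch1 were lower and Jag1 was higher in ESCC, while Dll1, Notch3 and Hes1 did not pass. These were 3 of the 6 members tested, beside 30.7% of all genes tested (4131 genes, edgeR with 6 control and 3 ESCC mice).

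**Figure D3:**
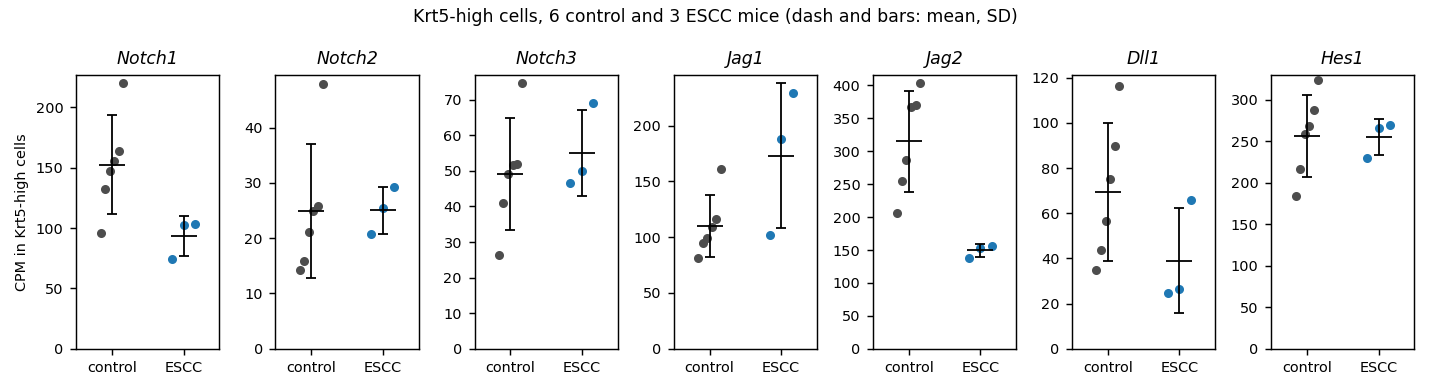
CPM (y axis, linear from 0) of 7 members in Krt5-high cells of 6 control mice (grey points) and 3 ESCC mice (blue points), with the mean (dash) and SD (bars). The 3 ESCC mice lie at 138 to 156 CPM for Jag2, below every control mouse, whereas for the other members the ranges overlap.

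Jag2 was at 207 to 403 CPM (median 327) in Krt5-high cells of control mice and at 138, 154 and 156 CPM in ESCC mice 17F, 17M and 8M. All 3 ESCC mice lay below all 6 control mice. The mean fell from 315 ± 76.9 CPM (SD, n = 6) to 149 ± 9.79 CPM (SD, n = 3), a log2 fold change of -1.07 ± 0.19 (SE, edgeR adjusted p = 0.000181). With each mouse left out in turn it stayed between -1.14 and -0.99.

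Notch1 was lower in ESCC with ranges that overlapped, 95.7 to 220 CPM (median 151) in control against 102, 74.2 and 103 CPM in mice 17F, 17M and 8M (-0.65 ± 0.22, edgeR adjusted p = 0.0268). Jag1 was higher in 17F and 17M (188 and 229 CPM) than in any control mouse (80.9 to 161 CPM, median 104), but mouse 8M was at 102 CPM (0.72 ± 0.25, edgeR adjusted p = 0.0315). Both calls were fragile. Notch1 lost its call without 17F, 17M or control mouse 3 (adjusted p 0.0518 to 0.175), and Jag1 without 17F, 17M or control mouse 1, 4, 5 or 6 (0.0564 to 0.205) and with DESeq2 (0.0814). Notch1 also lost it with classes from clusters of control cells (edgeR adjusted p = 0.0944), a class limit of 0.5 (0.0718), no filter (0.0532) and library 1 alone (0.136). Jag1 also lost it with library 2 alone (0.106) and without TMM scaling (0.145).

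Dll1 in Krt5-high cells was at 35.1 to 116 CPM in control and at 24.6, 26.7 and 65.9 CPM in ESCC mice 17F, 17M and 8M, 2 mice below the control range and 1 within it (-0.82 ± 0.37, edgeR adjusted p = 0.0967). Without mouse 8M the difference was -1.31 and passed (adjusted p = 0.00262). Hes1 did not pass at 230 to 270 CPM in ESCC and 185 to 324 CPM in control (0.02, 95% interval -0.32 to 0.37, edgeR adjusted p = 0.938). Neither did Notch3 (0.23, -0.32 to 0.78, adjusted p = 0.572). Notch2 was too low for the fit, with means of 25.1 ± 4.26 CPM (SD, n = 3) in ESCC and 24.9 ± 12.2 CPM (SD, n = 6) in control (two-sided exact permutation test, p = 0.976, smallest possible 0.0119).

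Several other measures differed between these groups in the same cells. Krt5-high cells of ESCC mice carried more Krtdap (1036 ± 478 CPM, SD, n = 3) than those of control mice (201 ± 169 CPM, n = 6) and had median counts of 2741.0 to 3372.0 UMIs against 852.0 to 1333.0. The immune list was at 54.8 to 215 CPM in ESCC and 0 to 58.3 CPM in control, and the fibroblast list at 18.2 to 151 and 94.6 to 524 CPM. The part of these in the differences above was not tested.

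In intermediate cells only Hes1 had enough UMIs for the fit (-0.58 ± 0.31, edgeR adjusted p = 0.139), beside 41.1% of 838 genes. Jag2 in these cells was at 26.2, 46.5 and 52.7 CPM in the ESCC mice and at 0 to 271 CPM in control. Of the members below the filter, Notch2 had the smallest p, with means of 53.6 CPM in ESCC and 11.6 CPM in control (two-sided exact permutation test, unadjusted p = 0.0476, smallest possible 0.0119). It rests on 27 and 3 UMIs, and the pooled ratio was 2.13 (95% counting interval 0.656 to 11.0). Among Krtdap-high cells 0 of 4 members tested passed (0 at an unadjusted p under 0.05 in edgeR, 0 by DESeq2), beside 22.9% of all genes. There the log2 differences between ESCC and control were 0.61 for Notch2 (95% interval -0.17 to 1.39), -0.12 for Notch3 (-0.70 to 0.46), -0.11 for Jag1 (-0.64 to 0.43) and -0.40 for Hes1 (-1.13 to 0.32). Notch1, below the filter there, was at 16.9, 13.3 and 70.3 CPM in ESCC and 38.0 to 123 CPM in control (two-sided exact permutation test, p = 0.155, smallest possible 0.0119).

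Over all cells used, Jag2 was again the member that separated ESCC from control, with 1 of 7 members passing beside 34.5% of all genes. Its level was 154 to 240 CPM (median 202) in control and 123, 139 and 124 CPM in mice 17F, 17M and 8M, with no overlap (-0.64 ± 0.20, edgeR adjusted p = 0.0129), although the adjusted p without 17F was 0.0789. The share of Krt5-high cells, in which Jag2 is highest, was larger in ESCC than in control. Without TMM scaling, Notch1 (-0.62) and Notch3 (-0.51) passed as well, and the median of all genes moved from 0.01 to -0.18. The other members did not pass, and the difference was 0.01 for Hes1 (95% interval -0.36 to 0.38), 0.35 for Jag1 (-0.07 to 0.76) and -0.33 for Dll1 (-1.0 to 0.35). Without mouse 8M both Jag1 (0.52, edgeR adjusted p = 0.0443) and Dll1 (-0.86, adjusted p = 0.0373) passed.

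**Figure D4:**
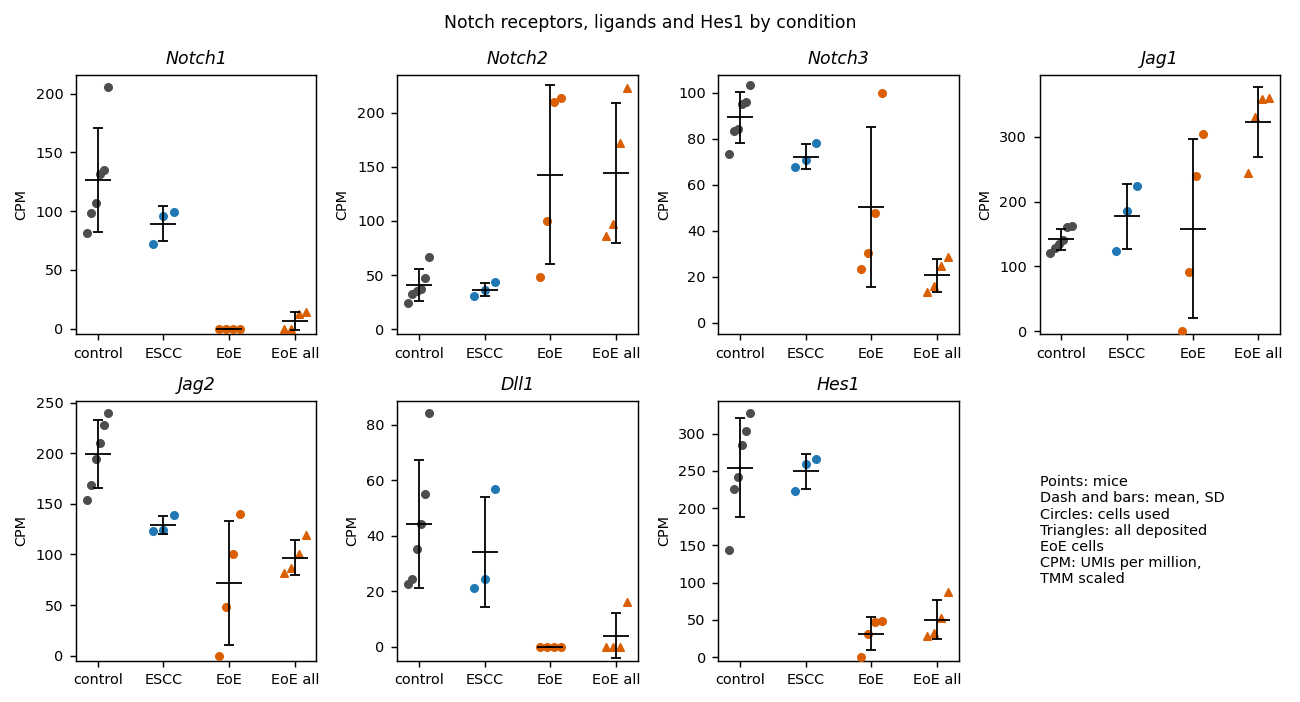
CPM (y axis, linear) of 7 members over all cells used in 6 control (grey), 3 ESCC (blue) and 4 EoE mice (orange circles), and over all deposited cells in the EoE mice (triangles), with the mean (dash) and SD (bars). EoE mice lie at 0 for Notch1 and Dll1 in the cells used and between 0 and 47.8 CPM for Hes1, where control mice lie between 144 and 328 CPM.

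In EoE the members were read from 97975 UMIs in 143 cells, most of them Krtdap-high. Notch2 was higher than in control, and Notch1, Jag2 and Hes1 were lower, 4 of 7 members tested beside 34.5% of all genes. The median of all 5865 genes in this comparison was itself -0.75 on the log2 scale, so a fold change here is best read against that value. The median of the 7 members was -1.42, or -1.25 with the members at 0 UMIs placed at their bounds.

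Notch1 had 0 UMIs in all 4 EoE mice, where the control level would have given 11.1, and was at least 3.69-fold lower over the group (edgeR adjusted p = 0.000676). Hes1 had 4 UMIs where the control level would have given 23. It was at 30.5, 46.7, 0 and 47.8 CPM in mice 9, 10, 11 and 12 and at 144 to 328 CPM (median 263) in control, with no overlap (-2.72 ± 0.54, edgeR adjusted p = 0.000252). Jag2 had 8 UMIs at 0, 140, 100 and 47.8 CPM in these mice, all below the control range of 154 to 240 CPM (-1.42 ± 0.47, edgeR adjusted p = 0.0188), but its call was lost without mouse 12 (adjusted p = 0.0605) or 9 (0.113). The Jag2 values of mice 11 and 12 rest on 1 UMI each. Mouse 11 was at 160 CPM without TMM scaling, so its place below the control range depends on the scaling.

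Notch2 went the other way, with 18 UMIs where the control level would have given 3.93. EoE mice 9, 10, 11 and 12 were at 214, 210, 100 and 47.8 CPM against 24.4 to 66.4 CPM (median 36.4) in control, 3 of 4 above the control range (2.00 ± 0.46, edgeR adjusted p = 0.00131). The values of mice 9 and 10, the younger pair, rest on 7 and 9 UMIs, and those of mice 11 and 12 on 1 UMI each, so that mouse 11 with its 6245 UMIs in all could not have been above 0 and within the control range. With age class as a term Notch2 was 2.18 (edgeR adjusted p = 0.000323), and the same 4 members passed, of 6 tested, beside 1425 of 3211 genes. Dll1 had 0 UMIs, where 3.88 would have matched the control level, and did not pass (edgeR adjusted p = 0.0654), although it passed without any 1 of the 3 ESCC mice, which share the fit, or without control mouse 6 (adjusted p 0.027 to 0.0447). Notch3 (4 UMIs, -1.25 ± 0.56, adjusted p = 0.102) and Jag1 (21 UMIs, 0.46 ± 0.39, adjusted p = 0.373) did not pass either. In sums of this kind, fewer cells of a type and less RNA per cell cannot be told apart. The 20 Krt5-high EoE cells held 8827 UMIs in all and were not compared.

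Because Krtdap-high cells dominated among the EoE cells used, the members were also compared within that class, a comparison added after seeing the data. No member had enough UMIs for the fit, in which 59.2% of 782 genes passed, so two-sided exact permutation tests over 4 EoE and 6 control mice were used without adjustment over the members (smallest possible p = 0.00476). Notch1 was at 0 CPM in all 4 EoE mice and at 35.7 to 151 CPM in control (exact p = 0.00952), but these cells held only 73310 UMIs, which bounds the pooled fall at 1.32-fold or more. Hes1, at 60.5 CPM in mouse 10, at 0 CPM in mice 9, 11 and 12, and at 80.3 to 528 CPM in control, also showed no overlap (exact p = 0.019), with a pooled ratio of 0.149 (95% counting interval 0.0178 to 0.549).

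Notch2 in these cells was at 196, 242, 182 and 72.7 CPM in EoE mice 9, 10, 11 and 12 and at 39.0 to 99.0 CPM in control (exact p = 0.019), with mouse 12 inside the control range. Jag2 did not separate the groups there, at 33.3 ± 38.8 CPM (SD, n = 4) in EoE and 31.2 ± 24.8 CPM (SD, n = 6) in control (exact p = 0.91), and its pooled ratio rests on 3 UMIs (1.76, 95% counting interval 0.328 to 6.14). The part of the larger share of Krtdap-high cells in the Jag2 difference over all cells was not tested. Jag1 (147 against 182 CPM, exact p = 0.61) and Notch3 (81.0 against 147 CPM, exact p = 0.081) did not separate either.

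With all 1500 deposited EoE cells in the sums, 297425 UMIs, 7 of 7 members passed, beside 3031 of 5971 genes. Jag1 then had 94 UMIs against 39.8 at the control level, and EoE mice 9, 10, 11 and 12 were at 360, 358, 244 and 330 CPM, above every control mouse (112 to 150 CPM, log2 fold change 1.33, edgeR adjusted p = 1.54e-05). Notch3, with 6 UMIs against 26, was lower (-1.98, edgeR adjusted p = 0.000315). Of the cells this adds, 1357 lay outside the limits or were set aside, and the endothelial list in all deposited EoE cells was at 256 to 422 CPM, again from 2 of 11 genes with Cdh5 and Kdr at 0. The part of these cells' quality in the Jag1 and Notch2 levels was not tested.

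ESCC and EoE were compared directly in the same fit, and 3 of 7 members passed beside 41.7% of all genes. The median of all 5865 genes was itself 0.81 on the log2 scale, and 1763 genes passed as higher and 684 as lower in ESCC. Hes1 was higher in ESCC, at 266, 260 and 223 CPM in mice 17F, 17M and 8M (2.73 ± 0.55, edgeR adjusted p = 0.000211). Notch1 was higher in ESCC too, at 96.1, 71.9 and 99.2 CPM against 0 (at least 2.41-fold over the group, edgeR adjusted p = 0.00192). Notch2 was lower in ESCC, at 35.8, 30.7 and 43.2 CPM (-2.20 ± 0.46, edgeR adjusted p = 0.000384). This comparison shares its EoE samples with the one above, and in a fit of these 2 groups alone, which left 881 genes, no member passed the filter for a test.

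Age among the control mice was tested as 3 old against 3 young mice, and 0 of 7 members passed (1 at an unadjusted p under 0.05 in edgeR, 0 by DESeq2), beside 0.0971% of all genes. Dll1 had the smallest p, at 44.2 to 84.2 CPM in old and 22.6 to 35.4 CPM in young mice (0.97 ± 0.39, edgeR p = 0.0222, adjusted p = 0.88). Notch2 was at 37.4 to 66.4 CPM in old and 24.4 to 35.4 CPM in young mice (0.72 ± 0.38, edgeR p = 0.0715, adjusted p = 0.997).

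As a description, the genes whose log2 CPM followed each member most closely over the 27 sums of 9 mice and 3 classes were listed among 8838 genes. Points of 1 mouse share a library, and the members' own correlation with log2 depth ran from -0.414 to 0.111. Dll1 was closest to Aspm (r = 0.905), which acts at the mitotic spindle, Card10 (0.898) and Cdca2 (0.893). Jag2 was closest to Lrrc8b (0.919), Spred2 (0.918) and Cip2a (0.916). For Notch3 the nearest were Gm94 (0.825), Grhl1 (0.816), a transcription factor of the epithelial barrier, and Dbnl (0.809).

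Notch1 had Slc26a2 (0.89), Smc3 (0.88) and Il1r2 (0.869) as its nearest genes. Notch2 was followed by Stap2 (0.789), Ctnnbip1 (0.787) and Serp1 (0.781), and Hes1 by Met (0.823), Smad1 (0.807) and Tmc6 (0.807). Jag1 had the loosest companions, Tfrc (0.758), the transferrin receptor, Setd7 (0.736) and Slc6a8 (0.727).

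The rest of the pathway was read from 46 other genes in 6 lists (other receptors and ligands, the secretase and sheddases, receptor glycosylation, the nuclear complex, endocytosis and turnover, other targets), of which 44 were listed. Between Krtdap-high and Krt5-high cells, 3 of 13 tested were higher and 3 lower in control, beside 46.4% of all genes passing. Among the higher ones were Maml3 (0.92 ± 0.38, edgeR adjusted p = 0.0348), a Mastermind coactivator, and Adam10 (0.67 ± 0.29, adjusted p = 0.0441). Among the lower ones were Dlk2 (-4.44 ± 0.53, edgeR adjusted p = 1.89e-14), a Delta-like membrane protein, and Snw1 (-1.44 ± 0.45, adjusted p = 0.00486), an RBPJ partner.

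In ESCC, where 31.9% of all genes passed, 2 of 13 were higher, among them the γ-secretase subunit Psenen (0.71 ± 0.29, edgeR adjusted p = 0.0476). The 3 lower ones were the ubiquitin ligase subunit Fbxw7 (-1.22 ± 0.44, edgeR adjusted p = 0.0225), the corepressor Spen (-0.99 ± 0.31, adjusted p = 0.00755) and Dlk2, with 0 UMIs in Krtdap-high cells (adjusted p = 0.017). The median over the 13 was -0.49 in control and -0.51 in ESCC, against -0.05 and -0.10 for all genes.

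Dlk2 gave the largest difference between ESCC and control among these genes. In Krt5-high cells it was at 95.7 to 205 CPM (mean 150 ± 42.8, SD, n = 6) in control and at 8.46 to 27.2 CPM (mean 15.7 ± 10.0, SD, n = 3) in ESCC (-3.34 ± 0.33, edgeR adjusted p = 5.94e-08). Dtx3l (0.99 ± 0.33, adjusted p = 0.025), a ubiquitin ligase of the Deltex family, and Adam10 (0.80 ± 0.25, adjusted p = 0.02) were higher, which made 3 of 11 tested, beside 30.7% of all genes. Over all cells used, Dlk2 (-2.87 ± 0.31, edgeR adjusted p = 2.67e-08) and Dtx3l (0.92 ± 0.28, adjusted p = 0.012) were the 2 of 18 that passed, beside 34.5% of all genes. In EoE Psenen was higher (1.15 ± 0.32, edgeR adjusted p = 0.00687), and Dlk2 (0 UMIs, at least 2.9-fold lower) and Dtx2 (0 UMIs, at least 1.2-fold lower) were among the 3 that were lower, 4 of 18 in all beside 34.5% of all genes.

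Of the 6 other target genes, 5 were listed and none passed the filter for a test. Nrarp, a target and feedback regulator of Notch signaling, is named after its values were seen. It had 49 UMIs in control and 22 in ESCC. In control mice it was at 0 to 13.7 CPM (median 5.47) in Krt5-high cells and at 30.8 to 85.4 CPM (median 55.9) in Krtdap-high cells, with no overlap, and in ESCC at 0.651 to 5.17 and 13.3 to 33.8 CPM.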

How the data were processed

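Single-cell RNA-Seq counts of UMIs per gene and cell were deposited by the authors as raw counts, made with UMI-tools 1.0.0, STAR 2.7.3 and featureCounts on GRCm38, per the submitters' processing notes. All columns used were mapped, and 0 were left unmapped. The 8 members, the other gene lists and the tests were chosen with earlier results of these data known, and the EoE comparison within Krtdap-high cells and the split into 5 steps were added after seeing the data. Mouse and library numbers were read from the sample titles.

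Cells with 250 to 3500 genes and 100 to 9500 UMIs were used. A cell was set aside where at least 3 UMIs, and more than its epithelial marker UMIs, fell on markers of other cell types. Doublet calls (261 cells, 5.8%) were removed only in an alternative. Each cell's Krt5 and Krtdap UMIs were scaled to 1000 UMIs and log10-transformed with 1 added, and cells with neither gene were left unstaged. Cells are not replicates, so UMIs were summed per mouse, joining both libraries, and per mouse and class. Sums were fitted with edgeR 4.0.16 (TMM scaling, filterByExpr, quasi-likelihood test, R 4.3.3), with Benjamini-Hochberg adjustment over all genes tested and a threshold of 0.05. Standard errors were derived from the edgeR log2 fold change and the statistic of its test. The 95% intervals of log2 differences are normal intervals from these errors that ignore the degrees of freedom. They can thus be narrower than the test implies. Comparisons of classes within mice had the mouse as a block, since both sums come from the same animal (correlation of their deviations 0.0303 to 0.204 in control and 0.134 to 0.393 in ESCC). Members below the filter were compared by two-sided exact permutation or sign-flip tests of mean CPM with no adjustment. Where a member had 0 UMIs, its bound was set at 3 UMIs summed over all mice of that group. Ratios resting on 1 to 3 UMIs carry an exact 95% interval. These bounds and counting intervals cover counting error only.

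Besides the members, up to 6 other pathway genes per comparison were named by the largest fold change past the threshold with a mean log2 CPM of at least 3, and for each member the 3 genes with the highest correlation. Some of the pathway genes counted are not reported here by name. Alternatives were all deposited cells, no doublets, either library alone, no filter, no TMM, DESeq2 1.42.0, strips of 0.15 and 0.5 on the axis, classes from clusters of control cells (scanpy 1.11.5), no block, only the groups compared, age as a term, 4 cell cycle UMIs, and each mouse left out in turn. The steps were tested on simulated data.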

Additional observations from a re-analysis of the deposited data

Results flagged for a closer look

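In 52 groups of 4 or 6 mice, the highest and lowest values were set against the rest of the group, a test that chance passes in about 1 in 20 groups, and 7 values stood apart. Dll1 was at 159 CPM in cycling Krt5-high cells of control mouse 3 (next highest 67.0 CPM) and at 120 CPM in the other Krt5-high cells of control mouse 4 (next 77.4 CPM). Dll1 was also at 6.61 CPM in Krtdap-high cells of control mouse 4, where the other 5 mice were at 0. Notch2 was at 49.3 CPM in cycling Krt5-high cells of control mouse 6 (next 26.8 CPM) and at 47.9 CPM in all Krt5-high cells of control mouse 5 (next 25.9 CPM). In intermediate cells of control mouse 1 Notch2 was at 69.7 CPM, with 0 in the other 5 mice. Hes1 was at 60.5 CPM in Krtdap-high cells of EoE mouse 10, with 0 in the other 3 mice. Each of these rests on 1 to 12 UMIs.

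The 1357 EoE cells left out held 199450 UMIs, which no comparison of the report uses on their own. Notch2 was at 125 CPM in them, above the highest control mouse at 66.4 CPM, and Jag1 at 366 CPM, above the highest control mouse at 162 CPM.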

How the results depend on the processing

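Over the alternatives, 625 values for single comparisons kept their direction and side of the threshold, 23 lost a call, 19 gained one and 51 turned direction. With 1 mouse left out these were 704, 22, 12 and 33, and 0 of the values that turned passed the test after turning. Krt5-high Jag2 and the control stage differences of Notch1, Notch2, Notch3, Jag2 and Dll1 did not lose a call in any alternative in which they were tested. The cause of each change given here was not tested.

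Of the counts of members called, ESCC against control went from 1 to 0 with library 2 alone and to 3 with no TMM. EoE against control went from 4 to 7 with all deposited cells, where 3031 of 5971 genes passed. ESCC against EoE went from 3 to 6 with all deposited cells, where 3376 genes passed. It went to 0 with only the 2 groups, a fit of 881 genes in which no member was tested. Intermediate against Krt5-high cells in control went from 1 to 3 with cluster classes, and in ESCC from 2 to 1 with library 1 alone. The counts over all genes there went from 390 to 562 and from 751 to 322. Krtdap-high against Krt5-high cells in control went from 6 to 3 with library 2 alone, and in ESCC from 6 to 2 and 3 with library 1 and library 2 alone, where fewer UMIs also left fewer members tested. The stage difference went from 0 to 1 with cluster classes. ESCC against control in intermediate cells went from 0 to 1 with no TMM, a strip of 0.5 and cluster classes. Cycling against other cells went from 0 to 1 in control with all deposited cells and with no doublets, and in ESCC from 1 to 0 with library 1 alone (where Jag1 was not tested), no filter, no TMM, DESeq2 and no mouse block. EoE against control in Krtdap-high cells went from 0 to 2 with no filter. With each mouse left out, the ranges were 0 to 3 (ESCC against control), 1 to 2 (intermediate in ESCC), 4 to 6 (Krtdap-high in control), 2 to 6 (Krtdap-high in ESCC), 1 to 4 (ESCC against control in Krt5-high cells), 0 to 1 (cycling in control and in ESCC) and 0 to 2 (EoE in Krtdap-high cells).

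The replicate block stands for the mouse, whose cells give both sums. Without it, Krtdap-high against Krt5-high cells called 4 members in ESCC rather than 6, losing Notch1 and Hes1, and 6 in control, intermediate cells called 1 in control and 2 in ESCC, the stage difference 0 and cycling cells 0.

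Most log2 differences that turned were small. For ESCC against control Hes1 was -0.011 with all deposited cells, -0.041 with library 2, -0.18 with no TMM and -0.012 with only the 2 groups. In Krt5-high cells Hes1 was -0.022 with library 2, -0.22 with no TMM, -0.035 with a strip of 0.15 and -0.047 with cluster classes, and Notch3 was -0.012 with no TMM. With cluster classes Hes1 was 0.14 in intermediate and Notch3 0.030 in Krtdap-high cells. Jag1 in ESCC against EoE was 0.23 with no filter and 0.24 with DESeq2. For age, Notch3 was -0.23 with library 1 and Jag1 -0.16 with library 2. In control intermediate cells, cluster classes gave 0.63 for Notch1, 0.38 for Notch2, 0.64 for Jag1 and -0.13 for Hes1. There Notch3 was -0.32 with a strip of 0.15, Jag1 0.15 with no TMM, 0.021 with DESeq2 and 0.14 with a strip of 0.5, and Hes1 -0.077 and -0.017 with library 1 and 2 and -0.20 with no filter. In ESCC intermediate cells, cluster classes gave 0.18 for Notch1, 0.049 for Jag1 and 0.21 for Hes1, and a strip of 0.15 gave 0.0096 for Jag1. Jag1 between Krtdap-high and Krt5-high ESCC cells was -0.012 with no doublets, -0.14 and -0.11 with library 1 and 2, -0.019 with no filter, -0.083 with no TMM, -0.056 with DESeq2, -0.042 with a strip of 0.15, -0.18 with cluster classes and -0.094 with no mouse block. For the stage difference, Notch1 was -0.12, -0.18 and -0.10 with library 1 and strips of 0.15 and 0.5, Jag2 0.076, 0.75 and 0.17 with these and 0.44 with cluster classes, and Notch3 0.037 with library 2. For cycling cells, Hes1 in control was -0.16 with library 2, and in ESCC Notch1 was -0.015 with no mouse block and Jag2 0.076 with library 1 and 0.031 with at least 4 cell cycle UMIs.

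With each mouse left out, the ranges that crossed 0 were, for ESCC against control, Hes1 -0.12 to 0.065 over all cells and -0.056 to 0.10 in Krt5-high cells, and Notch3 -0.21 to 0.0096 and Jag1 -0.19 to 0.017 in Krtdap-high cells. Jag1 ran from -0.14 to 0.68 for EoE against control and from -0.36 to 0.48 for ESCC against EoE, and Notch3 from -0.00074 to 0.23 for age. Along the axis Jag1 ran from -0.33 to 0.10 in control and -0.63 to 0.030 in ESCC intermediate cells and from -0.35 to 0.33 in ESCC Krtdap-high cells, and Notch2 from -5.78 to 0.0019 in control intermediate cells, where it had 3 UMIs. The stage difference ran from -1.24 to 0.35 for Notch1, -1.38 to 0.39 for Jag2 and -1.59 to 3.23 for Dll1. In cycling cells of control Jag2 ran from -0.0043 to 0.25 and Hes1 from -0.14 to 0.28, and in ESCC Notch1 from -0.20 to 0.36 and Jag2 from -0.26 to 0.072.

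Counts over all genes that moved by more than 1.5 times were, for ESCC against control, 2021 (1192 with library 1), in Krt5-high cells 1267 (717 with library 2, 1971 with no filter), in intermediate cells 344 (147 with a strip of 0.15, 703 with no filter) and in Krtdap-high cells 571 (314 with library 2, 1028 with cluster classes). They were 2447 (661 with only the 2 groups) for ESCC against EoE, 5 (2 with library 1, 24 with no filter) for age, 72 (15 with no mouse block, 183 with cluster classes) for the stage difference and 463 (1203 with no filter) for EoE in Krtdap-high cells. They were 390 and 751 (198 and 322 with library 1) for intermediate and 2138 and 1469 (1124 and 792 with library 1) for Krtdap-high cells of control and ESCC, and 347 (123 with library 2) and 343 (125 with no mouse block) for cycling cells. With 1 mouse left out, EoE against control fell from 2025 to 1126 and ESCC against EoE to 1572 without EoE mouse 10. ESCC against control fell to 839 in Krt5-high and 223 in intermediate cells without 17F, age ran from 0 to 8, intermediate cells fell to 230 in control without mouse 1 and 374 in ESCC without 17F, Krtdap-high ESCC cells to 891 without 8M, the stage difference to 33 without 17M and cycling ESCC cells to 215 without 17M. Depth limits EoE most, where 97975 UMIs place the floor at 30.6 CPM, and Dll1 and Notch2 elsewhere, which held 1 to 3 UMIs in several classes.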
